A study of Homo sapiens with 4 samples.

Results

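The circadian repressor and output genes are 10 of the 58735 genes counted: PER1, PER2, PER3, CRY1, CRY2, NR1D1, NR1D2, DBP, TEF and CIART. They were taken by gene symbol, and each symbol matched 1 row of the count table. The cells were MDA-MB-231, a long-established line from a human breast tumour without hormone receptors or HER2 amplification (triple-negative), transduced here with TetOn-H2BeGFP. Whether the transduced cells are 1 clone is not given in the labels. In this design a doxycycline-switched histone is diluted at each cell division, as are the dyes Claret and Violet. Per the labels' protocols, cells received 5 μg/ml doxycycline for 3 days, took up both dyes and were chased for 12 days. The 1% of cells that kept most Claret, eGFP or Violet were then sorted as 3 slow-cycling populations, while the sort of Bulk cells used no gate on fluorescence. The Bulk cells carry the same transgene and, as the protocol is written, passed through the same induction, dyes and chase. Each population gave 1 library, so no difference below has a replicate check and none has a p-value. The labels give neither a time of harvest nor a step that would set the cells' clocks to 1 phase.

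The circadian clock is a feedback loop of transcription. CLOCK or NPAS2 pairs with BMAL1 (gene ARNTL), binds E-box sequences and switches on PER, CRY, NR1D and DBP genes. PER and CRY proteins return to the nucleus and block that pair. The REV-ERB receptors (NR1D1 and NR1D2) repress ARNTL through ROR elements, while DBP and TEF carry the rhythm onward through D-box sequences. In breast epithelium, as in most tissues, the loop runs in single cells, and PER1 and PER2 also answer quickly to serum and hormones.

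Libraries are named here as in their titles. The treatment field of the labels names another sort for each of the 4, calling the library titled Bulk Claret+ and the library titled Violet un-gated, and values under those groups are in the closing section. Summed counts were 15508179 to 16976909, and a floor of 3 reads equals 0.177 to 0.191 CPM (counts scaled by TMM to a common library size). By the 95% Poisson interval, the count of 0 for CIART allows up to 0.217 CPM in Claret and 0.234 in Violet. All 10 proliferation genes looked up were more than 2-fold lower in each slow-cycling library than in the library titled Bulk, among them MKI67 with 6778 reads in Bulk against 689 to 995. Of the 14585 genes with a mean of at least 1 CPM, 6.72%, 7.64% and 6.92% were lower by 2-fold in Claret, eGFP and Violet. Of the cell line's markers, VIM had 12507 to 18488 reads, and CAV1 had 7188 in Bulk against 3742 to 4294 in the slow-cycling libraries. Of markers listed as low in the line, ESR1 had 3 to 7 reads, CDH1 0 to 3 and PGR 0 in every library. EPCAM, with 28 to 61 reads, and GATA3, with 74 to 95, were on the same list and were not absent. Among markers of other cell types, CD3E, HBB and LUM had 0 reads in every library, PTPRC had 0 to 2, ALB 0 to 6, the endothelial PECAM1 54 to 87 and the fibroblast-type collagen COL1A1 284 to 363. A lower value of a gene in a sorted population can mean fewer cells that express it or less RNA per cell, and these cannot be told apart here.

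The promoters of these genes are described first. The RefSeq table (GRCh38.p14) held 14 promoter windows for all 10 genes, each from 250 bases before to 50 after a transcription start. The E-box CACGTG, which the CLOCK pair binds, was in 5 of the 14 windows and in 4 genes (PER1, NR1D2, TEF and CIART). Of all 35116 windows in the table, 7.26% hold it. Printed here, 5′ to 3′ on each gene's strand with E-boxes in capitals, are the promoters of these 4 genes and those of NR1D1 and CRY1, the 2 genes with a mean over 10 CPM that were furthest above and below Bulk by the median of their 3 log2 ratios. For NR1D2 the window of its second listed start is given, and for TEF that of its first. The second TEF window also holds 1 E-box. RefSeq starts need not equal the ends of the genes as counted, and several lie inside them.
PER1 (chr17:8152355-8152654, minus strand): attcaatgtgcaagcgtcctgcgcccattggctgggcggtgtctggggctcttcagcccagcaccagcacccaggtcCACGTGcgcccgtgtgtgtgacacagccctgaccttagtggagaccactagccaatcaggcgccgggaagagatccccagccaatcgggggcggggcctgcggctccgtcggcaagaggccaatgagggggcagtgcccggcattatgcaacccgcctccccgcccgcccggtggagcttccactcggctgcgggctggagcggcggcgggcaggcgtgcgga
NR1D2 (chr3:23945871-23946170, plus strand): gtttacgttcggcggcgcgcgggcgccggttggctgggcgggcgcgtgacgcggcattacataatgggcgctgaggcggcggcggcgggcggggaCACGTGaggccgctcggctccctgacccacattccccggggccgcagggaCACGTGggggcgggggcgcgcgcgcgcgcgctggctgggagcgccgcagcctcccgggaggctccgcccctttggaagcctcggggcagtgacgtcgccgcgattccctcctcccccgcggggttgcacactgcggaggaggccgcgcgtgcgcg
TEF (chr22:41367205-41367504, plus strand): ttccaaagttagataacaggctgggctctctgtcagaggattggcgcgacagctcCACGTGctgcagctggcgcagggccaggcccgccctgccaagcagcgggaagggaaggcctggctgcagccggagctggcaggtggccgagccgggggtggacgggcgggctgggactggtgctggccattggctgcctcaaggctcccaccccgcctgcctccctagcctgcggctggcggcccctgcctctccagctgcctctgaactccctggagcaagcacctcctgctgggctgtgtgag
CIART (chr1:150282304-150282603, plus strand): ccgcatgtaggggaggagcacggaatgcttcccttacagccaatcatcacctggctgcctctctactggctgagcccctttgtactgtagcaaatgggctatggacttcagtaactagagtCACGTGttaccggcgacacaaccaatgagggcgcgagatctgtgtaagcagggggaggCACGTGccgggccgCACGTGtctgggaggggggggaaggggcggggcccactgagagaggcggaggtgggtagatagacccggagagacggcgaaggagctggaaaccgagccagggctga
NR1D1 (chr17:40100540-40100839, minus strand): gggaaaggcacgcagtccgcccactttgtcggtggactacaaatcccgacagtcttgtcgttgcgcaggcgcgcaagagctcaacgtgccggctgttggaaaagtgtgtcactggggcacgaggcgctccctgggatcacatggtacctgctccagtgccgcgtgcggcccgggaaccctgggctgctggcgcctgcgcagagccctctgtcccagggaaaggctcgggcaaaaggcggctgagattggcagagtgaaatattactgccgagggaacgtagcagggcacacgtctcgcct
CRY1 (chr12:107093500-107093799, minus strand): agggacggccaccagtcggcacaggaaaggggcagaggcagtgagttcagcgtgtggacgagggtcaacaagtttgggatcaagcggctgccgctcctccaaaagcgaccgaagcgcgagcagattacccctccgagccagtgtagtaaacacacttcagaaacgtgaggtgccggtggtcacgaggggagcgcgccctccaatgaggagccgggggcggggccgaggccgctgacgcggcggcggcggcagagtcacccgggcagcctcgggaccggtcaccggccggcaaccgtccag
The CIART window held 3 E-boxes, that of NR1D2 held 2, and those of NR1D1 and CRY1 held none of these 6 letters.

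The D-box, the target of DBP and TEF, was searched as TTATGTAA or TTACGTAA on both strands. It was in 3 of the 14 windows, against 1.01% of all windows, and the 3 genes were PER2, PER3 and NR1D2. These 30-base stretches are shown with the D-box in capitals. The 3 genes reappear together in the comparison of the slow-cycling libraries, and a link to the D-box was not tested. There they stand with TEF, whose windows held no D-box.
PER2 (chr2:238288595-238288624, minus strand): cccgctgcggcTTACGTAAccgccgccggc
PER3 (chr1:7784103-7784132, plus strand): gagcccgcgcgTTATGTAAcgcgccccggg
NR1D2 (chr3:23945916-23945945, plus strand): gtgacgcggcaTTACATAAtgggcgctgag
The ROR element core (TAGGTCA or TGGGTCA, both strands) was in the windows of CRY2 and NR1D2, 2 of 14 against 5.69% of all. A cAMP element (TGACGTCA), an AP-1 site (TGANTCA) and the palindromic glucocorticoid element were in 0 of 14 windows, against 1.85%, 7.71% and 0.39% of all windows. A match is a description of letters, and a window without one says nothing of the factor.

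Per length, CRY1, NR1D2 and NR1D1 were the best expressed genes of the group and PER3, DBP and CIART the weakest. In Bulk, CRY1 and NR1D2 stood highest at 10.5 FPKM each, and their counting intervals overlapped. NR1D1 followed at 5.43 FPKM. TEF (2.58), PER1 (2.22) and CRY2 (2.19 FPKM) came next with overlapping intervals, then PER2 (1.01), PER3 (0.50), DBP (0.275) and CIART (0.0955 FPKM). Neighbours overlapped there between PER3 and DBP and between DBP and CIART, and PER2 and PER3 did not. In all 3 slow-cycling libraries NR1D1 was first instead, at 9.71, 10.3 and 10.1 FPKM in Claret, eGFP and Violet. CRY1 and NR1D2 followed, overlapping each other, and lay below the interval of NR1D1 in Claret and eGFP. In Violet the interval of NR1D2 (8.34 to 9.56 FPKM) overlapped those of NR1D1 (9.2 to 11.1) and CRY1 (7.25 to 8.48).

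**Figure D1:**
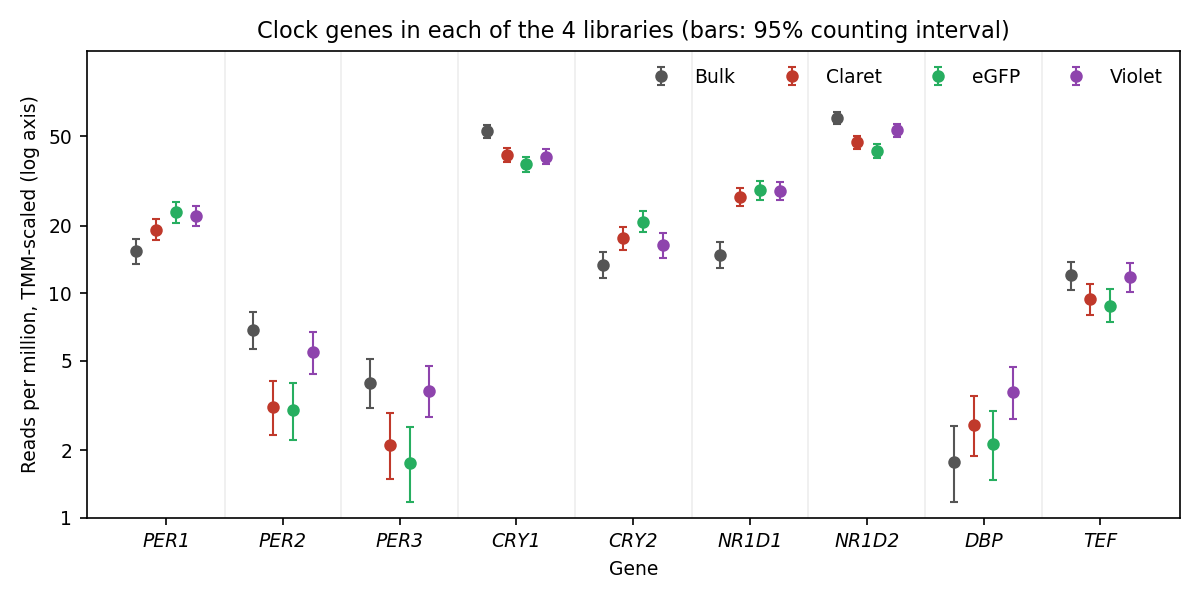
Scaled CPM (log axis) of 9 clock genes in Bulk, Claret, eGFP and Violet, 1 library each, with 95% Poisson intervals that cover counting error only; CIART, at 0 to 4 reads, is not drawn. PER1, CRY2 and NR1D1 are lowest in Bulk, and PER2 and PER3 are lower in Claret and eGFP than in Bulk and Violet.

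Set against Bulk, the families split between their members. PER1, CRY2 and NR1D1 were higher than Bulk in all 3 slow-cycling libraries, NR1D1 the most, by 0.85 to 0.94 on the log2 scale. CRY1 and NR1D2 were lower in all 3, and PER2 and PER3 were lower in Claret and eGFP, where PER2 passed 2-fold in both and PER3 in eGFP. Each of these differences was larger than counting error before the correction for base composition given below, and none has a replicate.

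PER1, PER2 and PER3 encode the PERIOD proteins, the rate-setting part of the repressor complex. PER1 (ENSG00000179094, GRCh38 chromosome 17, 8140472 to 8156506) was at 15.4 CPM in Bulk against 19.2, 22.9 and 22.1 in Claret, eGFP and Violet. Bulk was the lowest library, and its counting interval touched that of Claret alone. The log2 ratio of PER1 to Bulk was 0.32 in Claret (95% interval 0.08 to 0.57). It was 0.57 (0.34 to 0.82) in eGFP and 0.52 (0.28 to 0.77) in Violet. All 3 intervals lay above equality and below 2-fold.

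PER2 (ENSG00000132326, chromosome 2, 238244038 to 238290102) was arranged the other way. It had 108 reads in Bulk against 53, 48 and 86 in Claret, eGFP and Violet, or 6.85, 3.12, 3.02 and 5.46 CPM. Claret and eGFP were low together, and Violet lay close to Bulk. The log2 ratio was -1.10 in Claret (-1.64 to -0.65) and -1.15 in eGFP (-1.70 to -0.68), both past 2-fold. In Violet it was -0.32 (-0.75 to 0.09), a difference not detectable at this depth.

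PER3 (ENSG00000049246, chromosome 1, 7784320 to 7845177), the PERIOD paralogue that the core loop needs least, was arranged over the libraries as PER2 was. It had 63 reads in Bulk against 36, 28 and 58 in Claret, eGFP and Violet, or 4.0, 2.12, 1.76 and 3.68 CPM. Its log2 ratio to Bulk was -0.88 (-1.55 to -0.30) for Claret, -1.13 (-1.88 to -0.52) for eGFP and -0.11 (-0.66 to 0.42) for Violet. The eGFP value was past 2-fold, the Claret value was not, and in Violet no difference was detectable. Exons of PER3 share 1350 bases with 2 genes of the opposite strand, UTS2 and Z98884.1, which had 0 to 2 reads in any library.

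CRY1 and CRY2 encode the cryptochromes, the PERIOD proteins' partners and the stronger repressors of the pair. CRY1 (ENSG00000008405, chromosome 12, 106991364 to 107093829) was at 52.5 CPM in Bulk against 41.3, 37.4 and 40.5 in Claret, eGFP and Violet. Bulk was highest, its counting interval did not overlap the others, and the 3 slow-cycling libraries overlapped each other. The log2 ratios were -0.35 (-0.49 to -0.20), -0.49 (-0.64 to -0.33) and -0.37 (-0.52 to -0.22) in Claret, eGFP and Violet.

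CRY2 (ENSG00000121671, chromosome 11, 45847118 to 45883248) was arranged the opposite way, at 13.4 CPM in Bulk against 17.5, 20.8 and 16.3 in Claret, eGFP and Violet. The log2 ratios of CRY2 were 0.39 (0.13 to 0.65), 0.63 (0.38 to 0.89) and 0.28 (0.02 to 0.56). The Violet interval came close to equality. Neither cryptochrome passed 2-fold in any library. CIART (ENSG00000159208, chromosome 1, 150282543 to 150287093), a repressor of the CLOCK pair, had 4 Bulk reads, then 0 (Claret), 1 (eGFP) and 0 (Violet). It did not reach the filter of a mean of 1 CPM, every interval against Bulk included equality, and it enters none of the counts below.

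NR1D1 and NR1D2 encode the REV-ERB receptors, the heme-binding repressors of the loop's second arm. NR1D1 (ENSG00000126368, chromosome 17, 40092787 to 40100725) was the member furthest above Bulk by the median of its 3 log2 ratios, with 234 reads in Bulk against 457, 456 and 450 in Claret, eGFP and Violet. These were 14.8, 26.9, 28.7 and 28.6 CPM, so that the slow-cycling libraries overlapped each other and none overlapped Bulk. The log2 ratios of 0.85 (0.63 to 1.09), 0.94 (0.72 to 1.18) and 0.94 (0.71 to 1.18) stayed just under 2-fold, and each interval included it. With genes filtered at a mean of 10 CPM, NR1D1 passed 2-fold in eGFP and Violet. Exons of NR1D1 overlap those of THRA on the opposite strand over 263 of 2772 bases. THRA, a thyroid hormone receptor gene, had 514 Bulk reads against 497 to 518, with log2 ratios of -0.12 to 0.01.

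NR1D2 (ENSG00000174738, chromosome 3, 23945260 to 23980618) was at 60.2 CPM in Bulk against 46.9, 43.0 and 53.0 in Claret, eGFP and Violet. Bulk was highest and Violet the nearest to it. The log2 ratios were -0.36 (-0.50 to -0.22), -0.49 (-0.63 to -0.34) and -0.18 (-0.32 to -0.05).

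DBP and TEF encode PAR bZIP activators, which turn on D-box genes and are read as clock outputs. DBP (ENSG00000105516, chromosome 19, 48630030 to 48637438) was weak, with 28 reads in Bulk against 44, 34 and 57 in Claret, eGFP and Violet, or 1.78, 2.59, 2.14 and 3.62 CPM. Violet was highest and the only library whose log2 ratio to Bulk, 0.98 (0.35 to 1.73), left out equality. That value passed 2-fold with unscaled summed counts and with a prior count of 0.5. The ratios in Claret (0.51, -0.17 to 1.28) and eGFP (0.25, -0.50 to 1.04) were not detectable at this depth. DBP shares 661 of 6544 exonic bases with SPHK2 on the opposite strand, which had 377 Bulk reads against 260 to 301.

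TEF (ENSG00000167074, chromosome 22, 41367333 to 41399326) was at 12.0 CPM in Bulk against 9.42, 8.81 and 11.7 in Claret, eGFP and Violet. The log2 ratios of TEF were -0.34 (-0.66 to -0.04) in Claret and -0.44 (-0.77 to -0.12) in eGFP. In Violet it was close to Bulk, at -0.03 (-0.33 to 0.27), and that value was 0.02 with unscaled summed counts.

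**Figure D2:**
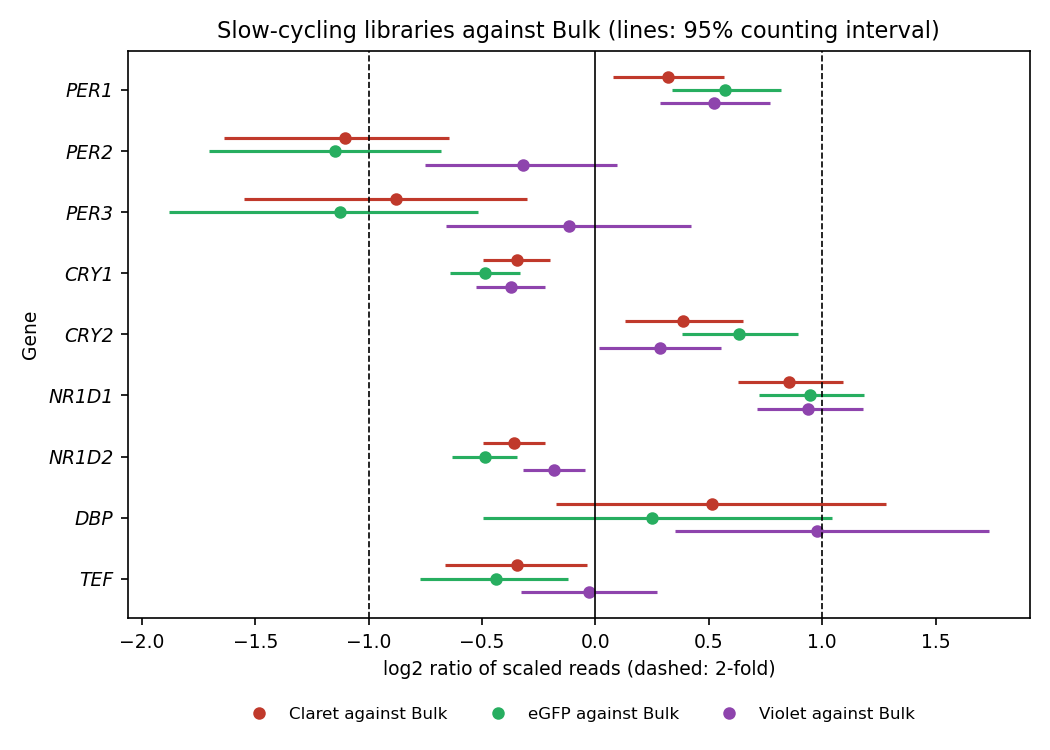
Log2 ratio of scaled reads of each slow-cycling library against the Bulk library for 9 clock genes; lines are 95% exact intervals that cover counting error only, and dashed lines mark 2-fold. PER2 in Claret and eGFP and PER3 in eGFP lie past 2-fold below Bulk, and NR1D1 lies 0.85 to 0.94 above it in all 3.

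Counted together, 0 of the 9 genes kept were higher past 2-fold in any library, against 11.3% of all 14585 genes kept in Claret, 12% in eGFP and 11.7% in Violet. Lower past 2-fold were 1 of 9 in Claret, against 6.72% of all genes, 2 of 9 in eGFP against 7.64%, and 0 of 9 in Violet against 6.92%. By the interval alone, 3 of 9 lay above Bulk and 5 below in Claret, where 34.1% and 36.2% of all genes did. The counts were 3 above and 5 below in eGFP (34.6% and 36.7% of all genes) and 4 above and 2 below in Violet (35.2% and 35.8%). The median log2 ratio over the 9 genes was -0.34, -0.44 and -0.03 in the order Claret, eGFP, Violet, against -0.01, -0.01 and 0.01 over all genes kept. The 3 comparisons share the Bulk library. Bulk lay below all 3 slow-cycling libraries in 4 of 9 genes (PER1, CRY2, NR1D1 and DBP), as in 42.6% of all genes. It lay above all 3 in 5 of 9 (PER2, PER3, CRY1, NR1D2 and TEF), as in 42.8% of all genes, though TEF in Violet was above Bulk with unscaled summed counts (0.02) and with a filter at a mean of 10 CPM (0.05).

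In each family 1 paralogue was above Bulk and its partners were below. The counts of members above and below Bulk are near the shares over all genes, and how often other paralogues split in this way was not tested. Before the correction for base composition given below, the split was beyond counting error in all 3 libraries for the CRY and NR1D genes. It was so in Claret and eGFP for the PER genes, and in neither direction throughout for DBP and TEF. The PER genes summed to 26.2 CPM in Bulk against 24.4, 27.7 and 31.2 in Claret, eGFP and Violet. The CRY genes summed to 65.9 CPM in Bulk and 56.8 to 58.8 in the others, and the NR1D genes to 75.1 in Bulk and 71.6 to 81.6 in the others. Shares within families were computed after these values had been seen. PER1 held 58.6% of PER reads in Bulk (95% exact Clopper-Pearson interval 53.7 to 63.4), 78.6% in Claret (74.3 to 82.4), 82.7% in eGFP (78.9 to 86.1) and 70.7% in Violet (66.5 to 74.7). The Bulk interval overlapped no other, and Violet overlapped Claret but not eGFP. CRY2 held 20.3% of CRY reads in Bulk (17.9 to 22.9), 29.8% in Claret, 35.7% in eGFP and 28.7% in Violet (25.8 to 31.8). NR1D1 held 19.8% of NR1D reads in Bulk (17.5 to 22.2), 36.4% in Claret, 40.0% in eGFP and 35.0% in Violet (32.4 to 37.7). For both families the Bulk interval lay below all the others. DBP held 12.9% of the reads of DBP and TEF in Bulk (8.75 to 18.1) and 19.5% to 23.6% in the others, where Claret and eGFP overlapped Bulk.

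**Figure D3:**
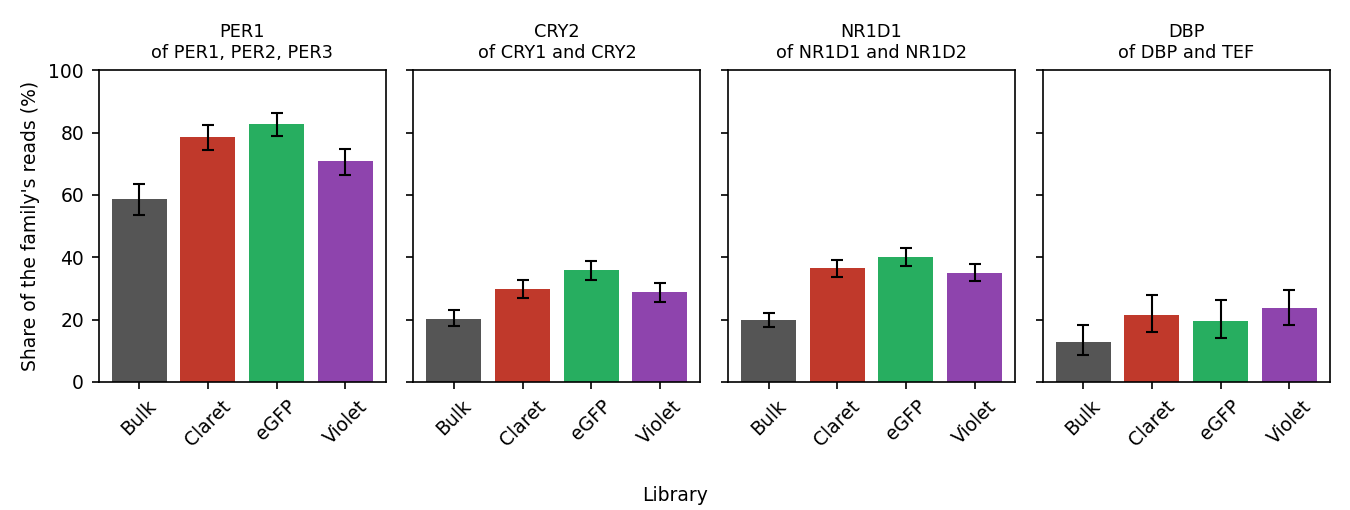
Share of each family's reads (%, axis from 0) held by PER1, CRY2, NR1D1 and DBP in the 4 libraries, with 95% exact binomial intervals that cover counting error only. For PER1, CRY2 and NR1D1 the Bulk bar is lowest (58.6%, 20.3% and 19.8%) and its interval overlaps none of the slow-cycling libraries.

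Base composition moved with this arrangement. Transcript GC content was 57.4% to 62.6% in the 4 genes with Bulk lowest and 40.6% to 56.5% in the 5 genes with Bulk highest. After a loess correction on GC content all 27 log2 ratios to Bulk kept their sign. Intervals were not recomputed for the corrected ratios, so whether the split stays beyond counting error in each library was not tested. NR1D1 was then at 0.75, 0.81 and 0.83 in Claret, eGFP and Violet, PER1 at 0.15, 0.39 and 0.36, and CRY2 at 0.33, 0.55 and 0.22. NR1D2 moved toward Bulk too, to -0.28, -0.39 and -0.13, as did CRY1, to -0.29, -0.42 and -0.34, and DBP, to 0.38, 0.10 and 0.85. PER2 was at -1.12 in Claret and -1.18 in eGFP after it, and TEF at -0.38 and -0.50, both further from Bulk than before.

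The study sorted by 3 labels, so the slow-cycling libraries were also set against each other. PER2, PER3, NR1D2 and TEF were higher in Violet than in both Claret and eGFP by intervals that left out equality, TEF only narrowly so against Claret. These were 4 of the 9 genes kept, where 6.4% of all genes were so placed, and 0 of 9 were below both, against 6.8% of all genes. Of these genes PER2, PER3 and TEF did not differ detectably between Violet and Bulk at this depth, and NR1D2 was below Bulk. Against Violet, PER2 had a log2 ratio of -0.78 in Claret (-1.33 to -0.30) and -0.83 in eGFP (-1.40 to -0.33). PER3 was at -0.76 (-1.44 to -0.17) in Claret and -1.01 (-1.77 to -0.39) in eGFP, the last being the only member value between slow-cycling libraries past 2-fold, which it was not with a prior count of 5. NR1D2 was at -0.18 (-0.32 to -0.03) and -0.30 (-0.45 to -0.16) against Violet, and TEF at -0.31 (-0.63 to -0.005) and -0.41 (-0.74 to -0.09). The TEF interval in Claret thus ended next to equality. Intervals were not recomputed under other scalings, so whether TEF stays in this group was not tested. PER2, PER3 and NR1D2 are the 3 genes with a D-box stretch printed earlier, and the TEF windows held none. The grouping by Violet and the D-box stretches were chosen after values had been seen.

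Past 2-fold, 0 of 9 genes were higher and 1 was lower in eGFP than in Violet, where 0.377% and 0.912% of all genes were. In Claret against eGFP 0 were higher and 0 lower (0.501% and 0.644% of all genes), and in Claret against Violet 0 and 0 (0.329% and 0.727%). By the interval, Claret lay above eGFP in 0 of 9 and below it in 2, where 12.7% and 11.8% of all genes did. Claret lay above Violet in 0 and below it in 4 (14.3% and 13.7% of all genes), and eGFP above Violet in 1 and below it in 5 (14.2% and 14%). Among the other genes, DBP was lower in eGFP than in Violet (-0.73, -1.42 to -0.12), and its interval for Claret against Violet (-1.08 to 0.11) included equality. CRY2 was highest in eGFP, by 0.35 (0.11 to 0.59) over Violet, while Claret lay 0.25 below eGFP (-0.48 to -0.02). PER1 was 0.25 lower in Claret than in eGFP on the log2 scale (log2 ratio -0.25, -0.47 to -0.03). For NR1D1 and CRY1 all 3 intervals included equality, with NR1D1 between -0.28 and 0.20 at the widest. Claret and eGFP, set against each other, differed beyond counting error only in PER1 and CRY2 among the 9 genes. Of the 9 genes, 5 were highest of the 3 sorts in Violet, as were 34.8% of all genes, and 6 were lowest in eGFP, as were 33.1%.

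**Figure D4:**
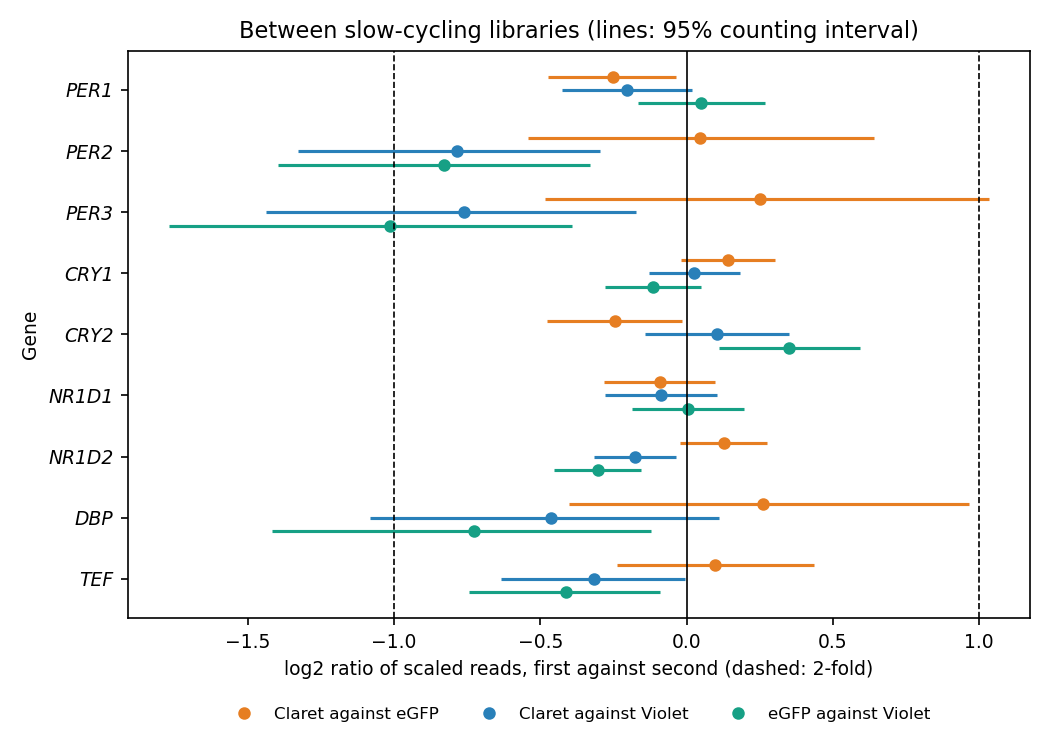
Log2 ratios of scaled reads between the 3 slow-cycling libraries for 9 clock genes, first library against second, with 95% exact intervals that cover counting error only and dashed lines at 2-fold. PER2, PER3, NR1D2 and TEF lie below 0 against Violet in both Claret and eGFP, and the Claret against eGFP values sit between -0.25 and 0.26.

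The positive arm, which the PER and CRY proteins block, was also split between paralogues. NPAS2, which can stand in for CLOCK, had 1393 reads in Bulk against 2711, 2565 and 2681 in Claret, eGFP and Violet, log2 ratios of 0.85, 0.87 and 0.94. CLOCK itself had 825 Bulk reads against 597 to 650, at -0.54, -0.48 and -0.34. ARNTL (BMAL1), the gene that REV-ERB represses, had 167 reads in Bulk against 234, 229 and 167 in Claret, eGFP and Violet. It was above Bulk by 0.37 (0.09 to 0.67) in Claret and 0.44 (0.15 to 0.74) in eGFP, and at 0.00 (-0.32 to 0.32) in Violet. ARNTL thus lay above Violet in the 2 libraries where PER2, PER3, NR1D2 and TEF lay below it. No difference in NR1D1 between the 3 slow-cycling libraries was detectable, and a link among these genes was not tested. ARNTL2, its paralogue, was at -0.58, -0.58 and -0.70. Of these 4 genes, 0 passed 2-fold in any library. Over all genes 11.3%, 12% and 11.7% were higher past 2-fold in Claret, eGFP and Violet, and 6.72%, 7.64% and 6.92% lower. With genes filtered at a mean of 10 CPM, 1 of the 4 was higher past 2-fold in Violet.

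Of 6 further genes, from the stabilising loop or for factors that act at D-boxes or E-boxes, 5 were kept. In each library 4 of the 5 lay above Bulk by their interval, as did 34.1%, 34.6% and 35.2% of all genes in Claret, eGFP and Violet. Past 2-fold 1, 2 and 1 were higher (11.3%, 12% and 11.7% of all genes) and 0 were lower. Their medians were 0.63, 0.71 and 0.70. RORA, which activates ARNTL through the element that REV-ERB occupies, had 19 reads in Bulk against 54, 76 and 68 in Claret, eGFP and Violet, with log2 ratios of 1.31 (0.62 to 2.24), 1.88 and 1.74. BHLHE40 (DEC1), an E-box repressor outside the PER and CRY complex and the most abundant of the list, had 2581 Bulk reads against 5110, 5801 and 4675. Its log2 ratio was 1.16 in eGFP, past 2-fold, and 0.88 and 0.86 in Claret and Violet. NFIL3, the repressor that competes with DBP and TEF at D-boxes, was at 0.62, 0.71 and 0.63, and BHLHE41 (DEC2) at 0.02 to 0.30. HLF, the third PAR bZIP gene, had 2 reads in all, both from Bulk.

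Genes that act on PER and CRY proteins mostly stayed within 2-fold of Bulk. Of 16 symbols read, 15 were in the table and 13 kept. Over all genes 11.3%, 12% and 11.7% were higher past 2-fold in Claret, eGFP and Violet, and 6.72%, 7.64% and 6.92% lower. Of the 13 kept, 0 were higher and 2 lower past 2-fold in each library. The 2 were TIMELESS, at 1952 Bulk reads against 326 to 446, and its partner TIPIN, at 606 against 145 to 224. Both proteins also protect replication forks. CSNK1E, a casein kinase that marks PER for destruction, was above Bulk by 0.59, 0.75 and 0.50, and CSNK1D by 0.13 to 0.19. USP7, which protects CRY1, was at -0.52, -0.73 and -0.67. CIPC, a CLOCK-binding inhibitor, was at -0.59, -0.51 and -0.38.

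Among 10 genes described as clock-controlled outputs, 2, 3 and 2 were higher past 2-fold in the order Claret, eGFP, Violet, and 1, 2 and 1 were lower. Over all genes 11.3%, 12% and 11.7% were higher and 6.72%, 7.64% and 6.92% lower. GADD45A, a growth-arrest gene, was at 1.58, 1.54 and 1.38. PPARA, a lipid-sensing receptor, was at 0.89, 1.16 and 1.14, and the cell-cycle inhibitor CDKN1A at 1.06, 1.22 and 0.80. WEE1, the kinase that holds back mitotic entry, was lower at -1.21, -1.41 and -1.27. NOCT, a deadenylase-family gene, was at -0.95, -1.07 and -0.74. NAMPT, the NAD salvage enzyme, was at 0.53, 0.49 and 0.69.

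**Figure D5:**
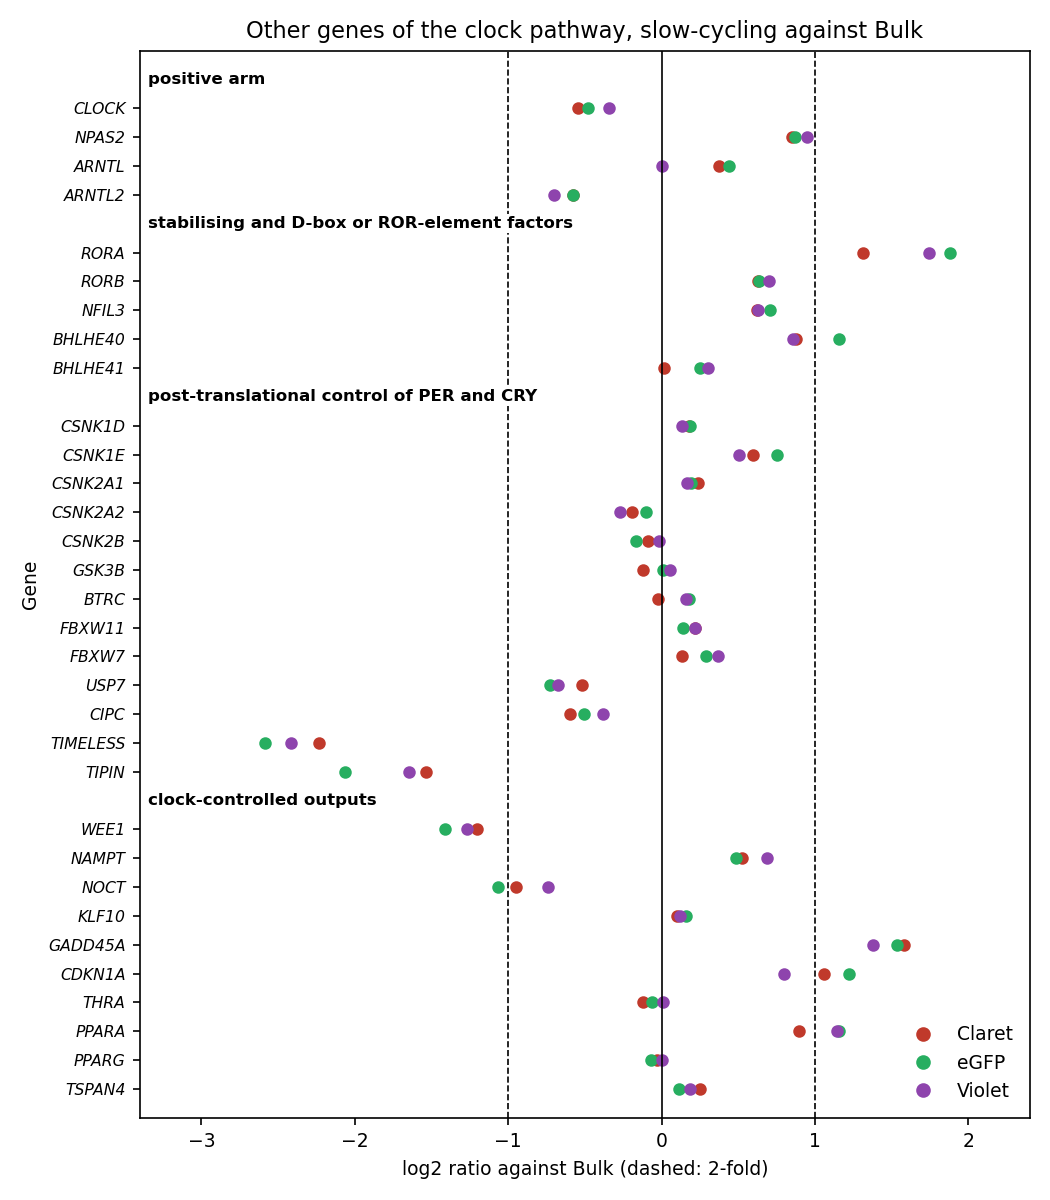
Log2 ratio to Bulk of further clock-pathway genes kept at a mean of 1 CPM, in 4 lists, with 1 point per slow-cycling library and dashed lines at 2-fold. TIMELESS, TIPIN and WEE1 lie past 2-fold below Bulk in all 3 libraries, and RORA and GADD45A lie past it above in all 3.

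PER1 and PER2 also answer to hormones and serum, so genes of those responses were read alongside. Of 8 glucocorticoid-responsive genes kept, 4, 3 and 5 were higher past 2-fold in that order, and 0 were lower, with ERRFI1 at 1.48, 1.67 and 1.55, TSC22D3 at 1.67, 1.59 and 1.56 and DUSP1 at 0.44, 0.75 and 0.45. Of the 8, 2 were below 0 in each library. FKBP5, a receptor co-chaperone and common marker of this response, named after its values were seen, was at -0.86, -0.83 and -0.86, with intervals below equality. For this list and the next, the shares over all genes were 11.3%, 12% and 11.7% higher and 6.72%, 7.64% and 6.92% lower. Of 11 immediate-early genes, 6, 7 and 6 were higher past 2-fold and 0 were lower, and 1 was below 0 in each library. EGR1, the most abundant of them, was at 3.38, 3.59 and 2.98. Beside these values PER1 was at 0.32 to 0.57, and PER2 was below Bulk in Claret and eGFP. The part of these responses in the PER values was not tested. The proliferation list had medians of -2.12, -2.49 and -2.15, lowest in eGFP.

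Finally, genes with the most similar profiles were looked up among 9755 protein-coding genes with a mean of 10 CPM or more, by the Euclidean distance between log2 CPM values centred over the 4 libraries. Nearest to NR1D1 were PNRC1 (distance 0.040), TTC32 (0.045), WDR27 (0.048), USP45 (0.049) and OTUD1 (0.053). PNRC1, a nuclear receptor coactivator, had 540 Bulk reads against 1019 to 1036. Nearest to CRY1 were SUB1 (0.013), TPGS2 (0.017), B3GALT6 (0.019), TOR1AIP1 (0.022) and ATXN7L2 (0.024). With 4 libraries such distances describe these profiles and nothing more.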

How the data were processed

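The deposited count table holds whole-number read counts per gene for 4 libraries. The deposited FPKM values go back to the same counts: within each library the authors' FPKM equals the count over gene length times 1 constant. HISAT2 2.0.5 and featureCounts 1.5.0-p3 are named, with no role, per the submitters' processing notes. Build, annotation and use of strand are not given in the sources used here. Gene starts and ends equal those of GENCODE 29 (GRCh38) for 58724 of 58735 genes, including the 10 members.

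Genes with a mean of at least 1 CPM were kept and scaled by TMM in edgeR 4.0.16 (R 4.3.3). Log2 ratios used a prior count of 2, and a difference of 2-fold (log2 ratio of 1) was called. The quasi-likelihood test of edgeR needs replicates, which 1 library per group does not give, so no p-value was computed. Intervals are 95% exact (Clopper-Pearson) for the ratio of 2 libraries' reads, without adjustment for their number. They cover counting error of reads only. No molecular identifiers are mentioned in the labels, so copies of the same molecule may be counted as separate reads and the intervals may be too narrow. The intervals compare libraries, not conditions.

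Members and gene lists were chosen with earlier results of these data known. Named genes are the members, genes of the clock lists by role, the 5 nearest profiles of 2 members, overlapping genes, and up to 3 abundant genes per context list. FBXL21P, CCRN4L and GILZ were not matched, and a few genes of the lists are not reported here and are left out of the counts. GC content is from GENCODE 29 transcripts. Scripts were tested on simulated data.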

Additional observations from a re-analysis of the deposited data

How the results depend on the processing

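Depth limits PER2, PER3 and DBP most, with 28 to 108 reads per library, and no value has a replicate. The log2 ratios to Bulk of the 9 genes kept had the same sign under DESeq2 size factors, prior counts of 0.5 and 5, no filter, a GC correction and log2(FPKM + 1), 27 of 27 in each. With unscaled summed counts 26 of 27 did, and with a filter at a mean of 10 CPM, which leaves 6 genes, 17 of 18. The exception was TEF in Violet (0.02 and 0.05). On the scale log2(FPKM + 1), which understates weak genes, values moved by up to 0.83. No paired analysis was possible because each group has 1 library.

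Numbers of members past 2-fold moved as follows. Lower in Claret changed from 1 to 2 with no filter, where CIART enters, to 2 at 1.5-fold, and to 0 with the 10 CPM filter and log2(FPKM + 1). Lower in eGFP changed from 2 to 3 with no filter, and to 0 with the 10 CPM filter and on that FPKM scale. Lower in Violet changed from 0 to 1 with no filter. Higher changed from 0 at 1.5-fold to 1 in Claret, 2 in eGFP and 2 in Violet. It changed to 1 in eGFP and 1 in Violet with the 10 CPM filter, and to 1 in Violet with summed counts and with a prior count of 0.5. Between sorts, lower in eGFP than Violet changed from 1 to 0 with a prior count of 5, the filter and log2(FPKM + 1), and to 3 at 1.5-fold. Lower in Claret than Violet changed from 0 to 2 at 1.5-fold. With the 10 CPM filter the median was 0.055 in Claret, 0.14 in eGFP and -0.062 for eGFP against Violet.

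Groups from the treatment field, which calls the library titled Violet un-gated and the library titled Bulk Claret, changed most. Lower members were 0 in Claret, 0 in eGFP, 1 in Violet and 0 for eGFP against Violet, and higher members 1 in Claret over eGFP and 2 in Claret over Violet. The median was 0.0295 in Claret, and between sorts it was 0.44 (Claret over Violet) and 0.10 (eGFP over Violet). PER2 in Claret reversed to 0.32 and PER3 for eGFP against Violet to 0.25. The pattern against Bulk and the grouping by Violet rest on the titles. Of the 10 proliferation genes, 10 were higher past 2-fold in Claret than in Bulk under the treatment field. In Claret, eGFP and Violet 0 of them were then lower past 2-fold. Which of the 2 fields is right was not tested. With these groups NR1D1 was at -0.94, -0.09 and 0.01 in the order Claret, eGFP, Violet, PER1 at -0.52, -0.20 and 0.05, CRY2 at -0.28, 0.10 and 0.35, and CRY1 at 0.37, 0.03 and -0.11. The median in Violet was -0.30. Of the 42 counts of the other lists, 27 moved by over 1.5 times with these groups, 7 with the 10 CPM filter, 7 on log2(FPKM + 1), 3 with no filter and 1 with the GC correction. Beyond the treatment field, the list of stabilising, D-box and E-box factors moved most. It went from 0 lower to 1 in each library with no filter, where HLF enters. Its higher calls went from 1 in Claret and Violet to 0 with the filter or log2(FPKM + 1). The 10 CPM filter takes out RORA, the gene behind those calls, as it does PER2 and PER3, the members lower past 2-fold. The cause of the other changes was not tested.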
